A study of Rattus norvegicus with 12 samples.

Results

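Metalloproteinases and their tissue inhibitors were followed in the bronchial wall of rats that had inhaled 2,3-pentanedione (PD), a butter flavoring. The set holds every gene whose symbol in the array annotation is Mmp, Adam or Adamts with a number, or Timp with a digit, a rule that uses no measured value. There were 49 such genes of 14217 with a probe set of their own, and they had 72 of the 31042 tested probe sets. They comprised 17 Mmp, 16 Adam, 12 Adamts and 4 Timp genes. A gene with several probe sets was represented by its brightest one on average over the arrays, and the others were examined separately.

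Matrix metalloproteinases (Mmps) are zinc enzymes that cut collagen, elastin, laminin and other proteins outside the cell. Most are secreted as inactive precursors, while the membrane-type Mmps are anchored at the cell surface. Adams are membrane proteins that release growth factors, cytokines and receptors from the cell surface, and some of them have lost the zinc site and act in adhesion. Adamts enzymes are secreted and bind to the matrix, where several of them cut proteoglycans such as aggrecan and versican. Timps are small secreted proteins that occupy the active site of these enzymes and so set how much of their activity remains. In the airway wall this system is known for the turnover of matrix during repair and scarring.

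The samples were 12 arrays of bronchi captured by laser from frozen sections of the right diaphragmatic lobe of male Wistar rats (Wistar Han, 6 to 7 weeks old on arrival). The 3 fibrotic specimens (replicates 3, 7 and 9) and the 3 nonfibrotic specimens (replicates 4, 8 and 10) came from rats that inhaled PD at 200 ppm over 2 weeks, and the 6 control specimens (replicates 1 to 6) came from rats that inhaled filtered air. Fibrotic tissue was a lesion in the airway lumen together with the wall under it, and the other specimens were bronchi with epithelium and wall. By the study's methods, the nonfibrotic tissue was collected from rats that also gave fibrotic tissue, but the labels do not identify these rats. The p-values between these 2 tissues therefore take no account of a shared animal. The question was which genes differ between scarred airways, spared airways of exposed rats and unexposed airways.

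Each value is the log2 of a MAS5 signal, an arbitrary measure of transcript abundance that had been scaled to a trimmed mean of 500 on every array. Probe sets for bacterial transcripts with no counterpart in the samples reached 6.52 on this scale (the highest of 84 values), called here the absent level. For a group with all its arrays under it, the change is given as a bound measured from it, the brighter group's mean over the dim group set to that level. Controls 1 and 2 stood apart from the other arrays. Their poly-A control transcripts, which are added before labeling, had a mean of 2.31 and 2.33, against 9.99 to 10.63 in controls 3 to 6 and 8.02 to 11.06 in the exposed arrays. The absent level came from probe sets for the bacterial transcript Trpn on all arrays. It also used the poly-A probe sets on controls 1 and 2 alone, where these transcripts were taken as absent. Controls 1 and 2 are labelled in the same way as the exposed arrays, and controls 3 to 6 in another way. The log2 GAPDH ratio (3′ over 5′ signal), which rises as RNA shortens, was 1.59 to 2.11 in fibrotic and 1.95 to 2.35 in nonfibrotic specimens. It was 1.16 to 2.03 in controls 1 and 2 and 0.70 to 0.90 in controls 3 to 6, which lay below every exposed array. The part of this ratio in the changes below was not tested. Among markers of cell types, all 5 of ciliated cells and all 4 of club cells fell in fibrotic bronchi, 3 of 6 of macrophages rose and 3 of 6 of fibroblasts rose. The summed linear signal of the ciliated markers was 730 to 1980 in fibrotic, 17581 to 28825 in nonfibrotic and 22082 to 34809 in control bronchi. For macrophages this sum was 8531 to 14973 in fibrotic, 479 to 4104 in nonfibrotic and 906 to 2021 in control bronchi. For fibroblasts it was 57943 to 79239 in fibrotic, 34647 to 49665 in nonfibrotic and 28564 to 48607 in control bronchi. For alveolar type II cells, of whose 4 markers 1 fell in fibrotic bronchi against controls and against nonfibrotic bronchi, it was 2063 to 42779 in fibrotic, 47674 to 63089 in nonfibrotic and 17994 to 38088 in control bronchi. The part of these cell types in the changes below was not tested, and in bulk tissue fewer cells of a type and less RNA per cell cannot be told apart. The number of arrays limits the precision.

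Between fibrotic and control bronchi, 13 of the 49 genes passed the threshold (limma, Benjamini-Hochberg adjusted p under 0.01 over all probe sets), where 12.5% of all genes did. Of these, 9 rose (4.13% of all genes did) and 4 fell (8.38% of all genes did). The genes that rose were Timp1 and Timp2, Mmp7, Mmp13 and Mmp14, Adam17 and Adam19, and Adamts4 and Adamts8. Those that fell were Timp4, Mmp15, Adam8 and Adam22. The median log2 fold change was 1.06 over the 49 genes and 0.10 over all genes. With every array value under the absent level set to that level, it was 0.21 over the 49 genes and 0.00 over all genes, and 13 of the 49 genes lay under the level on every fibrotic array, 13 on every nonfibrotic array and 15 on every control array. At an unadjusted p under 0.05 there were 27 of the 49 genes (37.3% of all genes). The arrays of the groups did not overlap for 18 genes that were higher in fibrotic bronchi (15.1% of all genes) and 6 that were lower (13.4% of all genes).

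Between nonfibrotic and control bronchi only Adam8 was called, and it fell, where 0.619% of all genes were called, 0.183% as higher and 0.436% as lower. At an unadjusted p under 0.05 there were 16 of the 49 genes (27.7% of all genes). The arrays did not overlap for 7 genes that were higher (8.4% of all genes) and 1 that was lower (6.37% of all genes). Among those that were higher, Mmp3, Mmp7, Mmp19 and Adam32 had a nonfibrotic mean under the absent level. Between fibrotic and nonfibrotic bronchi 3 genes were called, where 5.3% of all genes were. Timp1 was higher in fibrotic bronchi (1.47% of all genes were), and Adam8 and Mmp15 were lower (3.83% of all genes were). At an unadjusted p under 0.05 there were 19 of the 49 genes (27.2% of all genes). The arrays did not overlap for 14 genes that were higher (14.1% of all genes) and 7 that were lower (13.3% of all genes). The 2 comparisons against control share the same 6 control arrays.

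**Figure D1:**
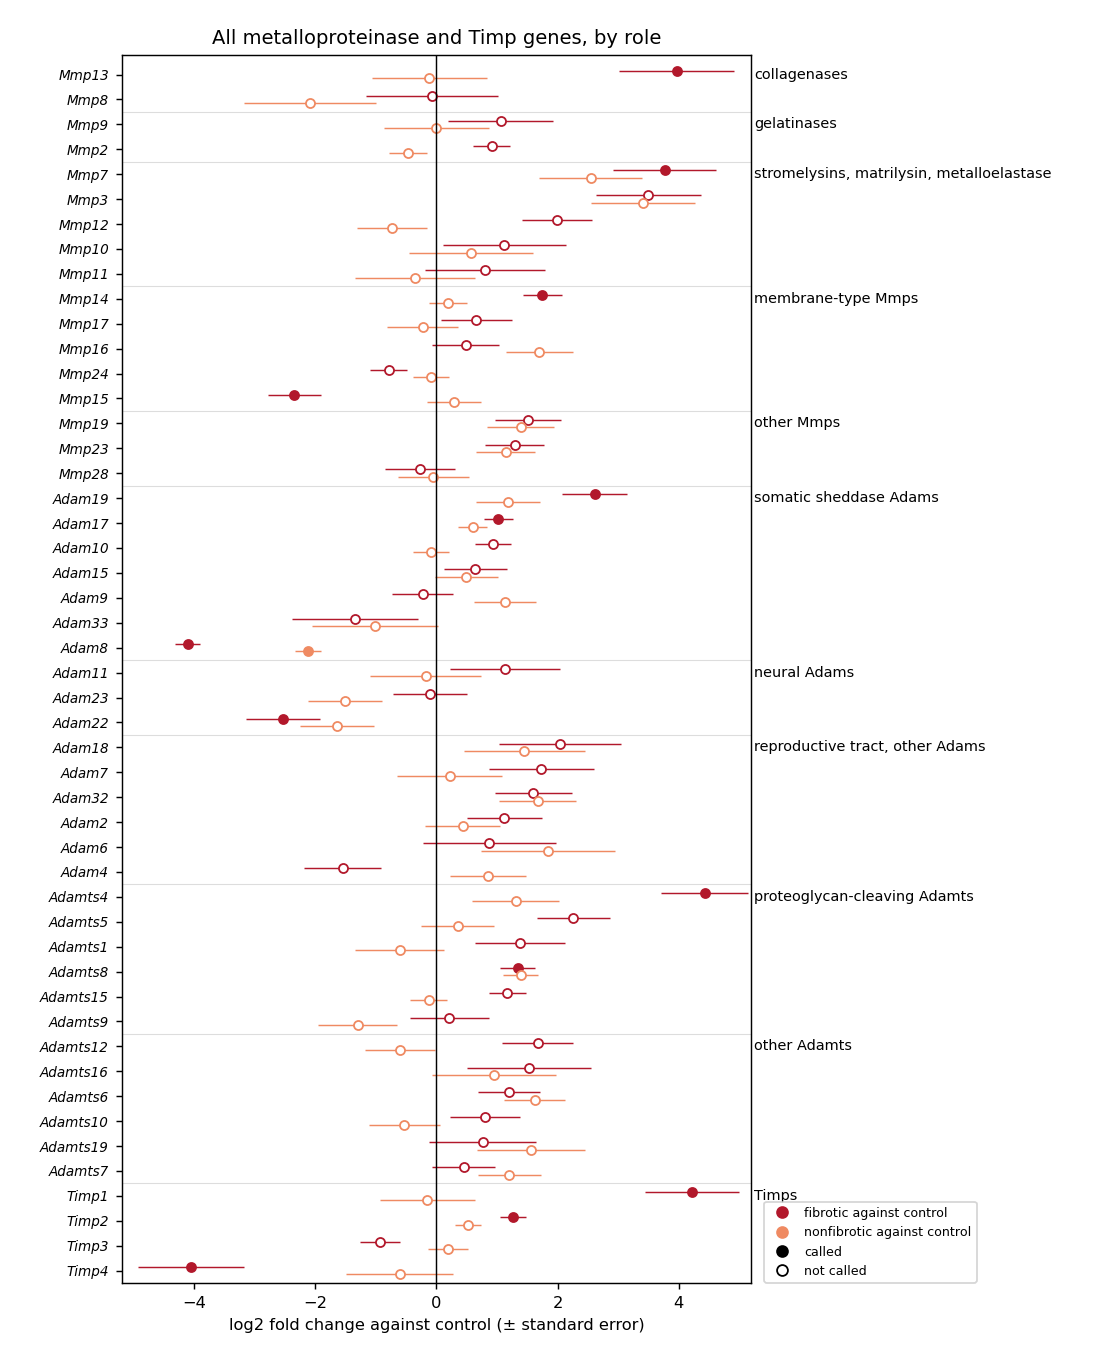
Log2 fold change against control (horizontal axis, bars are standard errors) of all 49 genes (vertical axis, grouped by role) in fibrotic and nonfibrotic bronchi, with filled points for called genes. By their representing probe sets, the 12 Adamts genes all lie to the right of 0 in fibrotic bronchi, from 0.21 to 4.43. Against controls 3 to 6 alone, 11 of 12 do. The Timp genes lie on both sides, from -4.05 to 4.22.

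The inhibitors moved apart. Timp1, a secreted inhibitor whose transcription is readily induced in wounded tissue, had log2 signals of 12.48, 12.76 and 11.56 in fibrotic bronchi and of 11.06, 6.16 and 6.44 in nonfibrotic bronchi, against a lowest, median and highest of 7.00, 8.25 and 8.47 in controls. All fibrotic arrays lay above all others, and among nonfibrotic arrays replicate 4 was above the controls while replicates 8 and 10 were below them. Timp1 averaged 12.27 ± 0.63 in fibrotic bronchi (SD, n = 3) and 8.04 ± 0.56 in controls (SD, n = 6), a log2 fold change of 4.22 (SE 0.78, 18.7-fold, limma adjusted p = 0.00126). Against nonfibrotic bronchi (7.89 ± 2.75, SD, n = 3) it was higher by 4.38 (SE 0.90, adjusted p = 0.00589), or by 4.23 with arrays under the absent level set to it. The first call was lost without fibrotic replicate 3 or 7 (adjusted p = 0.01 and 0.0114). The second was lost without any 1 of fibrotic replicates 3, 7 and 9 or nonfibrotic replicates 8 and 10 (adjusted p from 0.0117 to 0.0366).

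Timp2, which besides inhibiting Mmps takes part in the activation of the Mmp2 precursor by Mmp14, had signals of 13.12, 13.30 and 13.24 in fibrotic bronchi and of 12.90, 12.59 and 11.94 in nonfibrotic bronchi, against 11.66, 11.92 and 12.36 (lowest, median, highest) in controls. The fibrotic arrays spread over less than the distance to the highest control, and nonfibrotic replicates 4 and 8 also lay above the controls. The log2 fold change in fibrotic bronchi was 1.26 (SE 0.21, 2.4-fold, adjusted p = 4.9e-04), and the call held without each array in turn. The other probe set of Timp2 had a log2 fold change of 0.71 that was not called (adjusted p = 0.0339), and it was higher in fibrotic than in nonfibrotic bronchi by 1.27 (adjusted p = 0.00504).

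Timp4, the inhibitor with the most restricted tissue distribution, had signals of 5.23, 1.23 and 5.31 in fibrotic bronchi, all under the absent level, and of 5.72, 9.50 and 6.87 in nonfibrotic bronchi, against 7.35, 8.02 and 8.51 in controls (lowest, median, highest). It was at least 2.75-fold lower in fibrotic bronchi than in controls (adjusted p = 0.0044). The call was lost without fibrotic replicate 7, the lowest array, or without control 3 or 5 (adjusted p from 0.0105 to 0.0298). Timp3, a Timp that binds to the matrix and also inhibits Adam17 and Adamts enzymes, had signals of 11.02, 11.71 and 9.88 in fibrotic bronchi and of 11.76, 12.26 and 11.98 in nonfibrotic bronchi, against 11.24, 11.92 and 12.28 in controls. Its log2 fold change of -0.93 in fibrotic bronchi did not pass the test (SE 0.33, adjusted p = 0.0603). The 3 further probe sets of Timp3 had log2 fold changes of -1.65 (adjusted p = 0.00816, called), -1.25 (adjusted p = 0.0756) and -0.93 (adjusted p = 0.283), with fibrotic replicate 9 the lowest array on each. No Timp was called between nonfibrotic and control bronchi, where 1 of the 4 had an unadjusted p under 0.05.

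**Figure D2:**
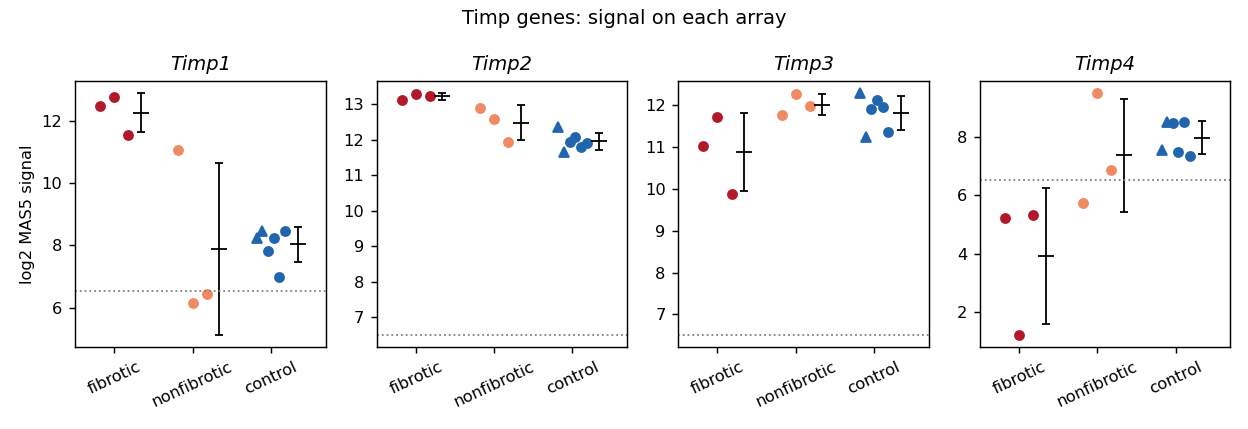
Log2 MAS5 signal (vertical axis) of the 4 Timp genes on each array of fibrotic, nonfibrotic and control bronchi, with the mean and SD beside the points, triangles for controls 1 and 2 and a dotted line at the absent level of 6.52. Timp1 and Timp2 lie above all controls on the 3 fibrotic arrays, and Timp4 lies under the absent level on all of them.

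Among the 5 membrane-type Mmps, Mmp14 rose and Mmp15 fell in fibrotic bronchi. Mmp14, a collagenase of the cell surface and the main activator of Mmp2, had signals of 10.40, 10.51 and 11.49 in fibrotic bronchi and of 9.87, 8.85 and 9.03 in nonfibrotic bronchi, against 8.57, 9.08 and 9.56 in controls (lowest, median, highest). Fibrotic replicate 9 was the highest array, and nonfibrotic replicate 4 lay between the fibrotic arrays and the controls. The log2 fold change was 1.75 (SE 0.32, 3.35-fold, adjusted p = 0.0012), and without fibrotic replicate 9 it was 1.40 and no longer called (adjusted p = 0.0125). A further probe set of Mmp14 rose by 2.78 (adjusted p = 1.0e-04) and was higher in fibrotic than in nonfibrotic bronchi by 2.09 (adjusted p = 0.00724), where the representing probe set differed by 1.55 (adjusted p = 0.0143).

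Mmp15, another membrane-anchored Mmp, had signals of 7.53, 8.61 and 7.56 in fibrotic bronchi and of 10.27, 11.24 and 10.12 in nonfibrotic bronchi, against 8.82, 10.45 and 11.28 in controls (lowest, median, highest). The fibrotic arrays lay under all others, with fibrotic replicate 7 close to the lowest control. It fell by 2.35 on the log2 scale in fibrotic bronchi against controls (SE 0.44, 5.11-fold lower, adjusted p = 0.00148) and by 2.64 against nonfibrotic bronchi (SE 0.51, adjusted p = 0.00398). The first call was lost without fibrotic replicate 3 or 9 (adjusted p = 0.0133 and 0.0114), and the second without either of these or nonfibrotic replicate 8 or 10 (adjusted p from 0.011 to 0.0259). Mmp24, a membrane-type Mmp best known in the nervous system, averaged 8.51 ± 0.13 in fibrotic (SD, n = 3), 9.20 ± 0.46 in nonfibrotic (SD, n = 3) and 9.29 ± 0.40 in control bronchi (SD, n = 6). Its fibrotic arrays lay under all others, but the log2 fold change of -0.79 was not called (adjusted p = 0.0814), nor were those of its other probe sets (-1.17 and -1.38, adjusted p = 0.0525 and 0.022).

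Mmp2, the gelatinase of mesenchymal cells, had signals of 11.90, 11.69 and 12.35 in fibrotic bronchi and of 11.35, 10.62 and 9.82 in nonfibrotic bronchi, against 10.18, 11.22 and 11.34 in controls (lowest, median, highest). Fibrotic arrays lay above all others and control 2 lay below the remaining controls, which kept between 11.17 and 11.34. The log2 fold change was 0.91 against controls (SE 0.31, adjusted p = 0.0556) and 1.38 against nonfibrotic bronchi (SE 0.36, adjusted p = 0.0254), and neither was called. Without nonfibrotic replicate 4 the difference from nonfibrotic bronchi was 1.75 and called (adjusted p = 0.00452). Mmp9, the gelatinase of leukocytes and epithelium, averaged 6.69 ± 1.08 in fibrotic (SD, n = 3), 5.63 ± 1.53 in nonfibrotic (SD, n = 3) and 5.63 ± 1.47 in control bronchi (SD, n = 6). These means lie near the absent level, and the log2 fold change of 1.06 in fibrotic bronchi had a standard error of 0.87 (adjusted p = 0.434).

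**Figure D3:**
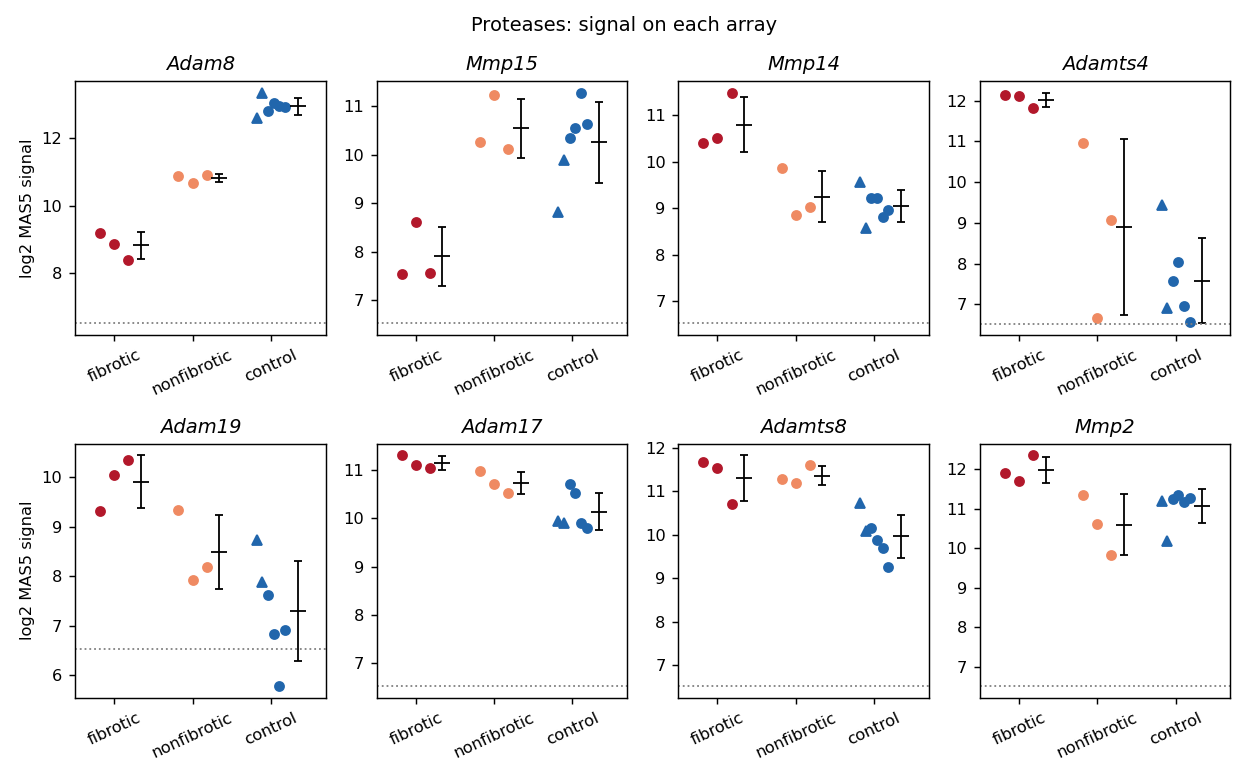
Log2 MAS5 signal (vertical axis, scaled to each gene) of 8 proteases on each array of fibrotic, nonfibrotic and control bronchi, with the mean and SD beside the points, triangles for controls 1 and 2 and a dotted line at the absent level of 6.52. Adam8 is lowest on the fibrotic, intermediate on the nonfibrotic and highest on the control arrays, without overlap, and Adamts4 reads 11.81 to 12.13 on the fibrotic arrays while its nonfibrotic arrays range from 6.67 to 10.97.

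Most of the measured collagenases, stromelysins and their relatives are encoded close together, with the exception of Mmp11, which lies on chromosome 20. In the RefSeq annotation of GRCr8, chromosome 8 carries 10 Mmp genes in a row, and 6 of them were measured, in the order Mmp13, Mmp12, Mmp3, Mmp10, Mmp8 and Mmp7. Genes of this kind are known targets of AP-1, a transcription factor that binds TGANTCA, a motif that reads the same on both strands. Promoter windows of 250 bases before and 50 bases after the start were available for 29 of the 49 genes. The motif was in 6 of these 29 windows and in 7.33% of all 33469 RefSeq windows of this length. Of these 6 windows, 5 belong to the cluster, all but that of Mmp8, and 1 to Adam19. The stretches of 120 bases upstream of the start that hold it are shown because it lies at a like distance from the start in all 5 genes, 5′ to 3′ on the coding strand with the motif in capitals. They are chr8:12782709-12782828, chr8:12866532-12866651, chr8:12925161-12925280, chr8:12974587-12974706 and chr8:13132923-13133042, all on the plus strand, and chr8:13008770-13008889 (plus strand) is shown as the neighbor without the motif.
Mmp13: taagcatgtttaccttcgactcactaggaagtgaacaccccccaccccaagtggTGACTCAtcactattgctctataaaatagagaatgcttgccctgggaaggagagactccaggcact
Mmp12: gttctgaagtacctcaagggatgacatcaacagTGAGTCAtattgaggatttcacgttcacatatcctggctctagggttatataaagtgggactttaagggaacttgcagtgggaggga
Mmp3: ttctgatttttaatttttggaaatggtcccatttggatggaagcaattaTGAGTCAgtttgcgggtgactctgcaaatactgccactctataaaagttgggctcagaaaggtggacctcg
Mmp10: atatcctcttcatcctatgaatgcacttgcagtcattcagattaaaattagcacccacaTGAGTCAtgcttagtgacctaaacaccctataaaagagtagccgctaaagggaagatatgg
Mmp8: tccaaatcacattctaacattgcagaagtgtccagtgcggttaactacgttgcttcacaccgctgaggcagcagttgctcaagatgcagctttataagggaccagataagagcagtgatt
Mmp7: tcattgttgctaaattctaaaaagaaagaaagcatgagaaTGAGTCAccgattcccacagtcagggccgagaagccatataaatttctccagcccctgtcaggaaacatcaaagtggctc
The motif starts 66 bases before the start in Mmp13, 87 in Mmp12, 71 in Mmp3, 61 in Mmp10 and 80 in Mmp7. A match is a description of the sequence and no evidence that the factor binds there.

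Of the 6 cluster genes only Mmp12 exceeded the absent level on all fibrotic arrays. Mmp13, a collagenase of connective tissue and cartilage, had signals of 6.98, 4.92 and 6.22 in fibrotic bronchi and of 1.29, 2.46 and 2.12 in nonfibrotic bronchi, against -1.02, 2.49 and 3.59 in controls (lowest, median, highest). It was called as risen in fibrotic bronchi (adjusted p = 0.00831), but only fibrotic replicate 3 exceeded the absent level, so no fold is given. The call was lost without any 1 of fibrotic replicates 3, 7 and 9, nonfibrotic replicate 10 or controls 2, 3, 5 and 6 (adjusted p from 0.0102 to 0.0554). Mmp7, the matrilysin of mucosal epithelium, had signals of 5.80, 6.17 and 8.09 in fibrotic bronchi and of 4.90, 4.63 and 6.88 in nonfibrotic bronchi, against 0.88, 2.99 and 4.30 in controls (lowest, median, highest). All 6 exposed arrays lay above the controls, and 1 array of each exposed group exceeded the absent level. Mmp7 was at least 1.12-fold higher in fibrotic bronchi than in controls (adjusted p = 0.00558), and the call was lost without any 1 of the fibrotic replicates or controls 3, 5 and 6 (adjusted p from 0.0105 to 0.0411).

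The other cluster genes were not called between fibrotic and control bronchi. Mmp12, the elastase of macrophages, which was named after its values were seen, had signals of 10.24, 8.79 and 9.86 in fibrotic bronchi and of 8.30, 7.11 and 5.32 in nonfibrotic bronchi, against 6.29, 7.92 and 8.24 in controls (lowest, median, highest). It exceeded the absent level on 3 fibrotic, 2 nonfibrotic and 5 control arrays, and its fibrotic arrays lay above all others. Its log2 fold change was 1.99 against controls (SE 0.58, adjusted p = 0.0263) and 2.72 against nonfibrotic bronchi (SE 0.67, adjusted p = 0.0181), or 1.95 and 2.32 with arrays under the absent level set to it. It was called against controls without nonfibrotic replicate 10 (adjusted p = 0.00919) and against nonfibrotic bronchi without nonfibrotic replicate 4 (3.41, adjusted p = 0.00331).

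Mmp3, a stromelysin that activates other Mmps and was likewise named after its values were seen, had signals of 6.14, 5.13 and 6.32 in fibrotic bronchi and of 6.04, 4.96 and 6.32 in nonfibrotic bronchi, against 1.31, 1.47 and 4.44 in controls (lowest, median, highest). No array exceeded the absent level, although both exposed groups lay above all controls, with an adjusted p of 0.0101 in fibrotic and 0.0341 in nonfibrotic bronchi. Mmp10, a second stromelysin named after its values were seen, averaged 5.00 ± 1.94 in fibrotic (SD, n = 3), 4.45 ± 2.64 in nonfibrotic (SD, n = 3) and 3.88 ± 0.52 in control bronchi (SD, n = 6), with no array over the absent level. Mmp8, the collagenase of neutrophils, averaged 5.23 ± 2.55 in fibrotic (SD, n = 3), 3.22 ± 0.52 in nonfibrotic (SD, n = 3) and 5.30 ± 1.73 in control bronchi (SD, n = 6), and its fibrotic arrays of 7.13, 2.33 and 6.23 extended past both ends of the control range of 2.67 to 7.02. Its log2 fold change in fibrotic bronchi was -0.07 (SE 1.09, adjusted p = 0.975), and the sign turned without fibrotic replicate 7 (1.37) or without control 3, 4 or 6 (0.20, 0.27 and 0.18). Of 4 neutrophil markers none was called in fibrotic bronchi, and their summed linear signal was 4795 to 5229 in fibrotic, 300 to 1681 in nonfibrotic and 526 to 8377 in control bronchi.

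**Figure D4:**
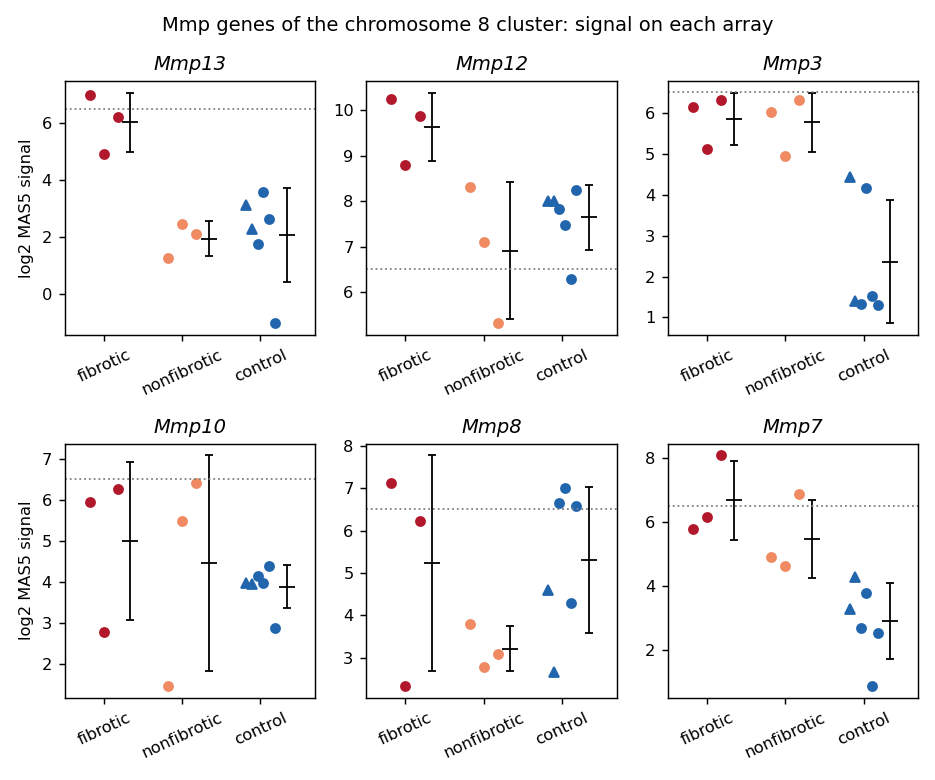
Log2 MAS5 signal (vertical axis, scaled to each gene) of the 6 measured Mmp genes of the chromosome 8 cluster on each array of fibrotic, nonfibrotic and control bronchi, with the mean and SD beside the points, triangles for controls 1 and 2 and a dotted line at the absent level of 6.52. Mmp3 and Mmp7 are higher on all exposed arrays than on the controls, while for Mmp13 only the 3 fibrotic arrays, and for Mmp12 these and nonfibrotic replicate 4 (8.30), exceed the highest control.

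Adam8, a membrane protease best known from leukocytes and osteoclasts, showed the smallest p among the 49 genes. Its signals were 9.20, 8.87 and 8.40 in fibrotic bronchi and 10.88, 10.67 and 10.89 in nonfibrotic bronchi, against 12.59, 12.93 and 13.34 in controls (lowest, median, highest). The 3 groups did not overlap, and the nonfibrotic arrays lay about midway. It fell by 4.11 on the log2 scale in fibrotic bronchi (SE 0.21, 17.3-fold lower, adjusted p = 9.8e-09) and by 2.12 in nonfibrotic bronchi (SE 0.21, 4.36-fold lower, adjusted p = 2.6e-04), and the difference of fibrotic minus nonfibrotic bronchi was -1.99 (SE 0.24, adjusted p = 1.1e-04). These calls held without each array in turn. A second probe set of Adam8 lay under the absent level on all arrays, at 4.70 ± 1.09 in fibrotic (SD, n = 3), 4.31 ± 1.69 in nonfibrotic (SD, n = 3) and 4.66 ± 0.62 in control bronchi (SD, n = 6), so these calls rest on 1 probe set. Some epithelial markers, named here after their values were seen, were ordered in the same way. Of the 5 ciliated markers, Dnah1 fell by 2.08 in nonfibrotic bronchi (adjusted p = 0.00284), and Dnai1 had a log2 fold change of -2.14 that was not called (adjusted p = 0.0164). Of the 4 club cell markers, Scgb3a1 fell by 6.73 in nonfibrotic bronchi (adjusted p = 0.00161), or by 6.08 with arrays under the absent level set to it, and Cyp2f4 and Sec14l3 had log2 fold changes of -1.61 and -1.22 that were not called (adjusted p = 0.111 and 0.0851). The nonfibrotic arrays of these 5 markers lay under all controls, and the other 3 ciliated markers and Scgb1a1 overlapped the controls. Foxj1, Rsph1 and Scgb1a1 went the other way in nonfibrotic bronchi, with log2 fold changes of 0.03, 0.21 and 0.65, and Tekt1 had -0.40. None of these was called. The part of these cells in the Adam8 values was not tested.

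Adam19 and Adam17 rose in fibrotic bronchi. Adam19, a sheddase of neuregulins (membrane-bound growth factors), had signals of 9.31, 10.05 and 10.35 in fibrotic bronchi and of 9.33, 7.92 and 8.19 in nonfibrotic bronchi, against 5.78, 7.27 and 8.72 in controls (lowest, median, highest). Fibrotic arrays lay above all controls, and nonfibrotic replicate 4 lay just above the lowest fibrotic array. The log2 fold change was 2.61 (SE 0.53, adjusted p = 0.00286), or 2.49 with the control array under the absent level set to it. The call was lost without fibrotic replicate 7 or 9 (adjusted p = 0.0181 and 0.021). A second probe set rose by 2.34 (adjusted p = 8.8e-04), and the others, at 1.70 and 2.14, were not called (adjusted p = 0.0648 and 0.0705). The third of the 4 probe sets was higher in fibrotic than in nonfibrotic bronchi by 3.97 (adjusted p = 0.00219), or by 2.60 with arrays under the absent level set to it, which included nonfibrotic replicates 8 and 10. Against controls, nonfibrotic bronchi were at -2.27 on that probe set (adjusted p = 0.0415) and at 1.18 on the representing one (adjusted p = 0.171), neither called. Between fibrotic and nonfibrotic bronchi the representing one differed by 1.43 (adjusted p = 0.171).

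The promoter window of Adam19 held the same TGANTCA motif, 169 bases before the start, and that of Timp1 held TGAGTAA, a near relative of it that was searched on both strands (as TGAGTAA or TTACTCA) and is in 2.9% of all windows, starting 108 bases before the start. These stretches are printed because both genes rose in the fibrotic wall. The stretch of Adam19 is chr10:30992571-30992690 (plus strand, GRCr8) and that of Timp1 is chrX:3771123-3771242 (minus strand, GRCr8), with the motif in capitals.
Adam19: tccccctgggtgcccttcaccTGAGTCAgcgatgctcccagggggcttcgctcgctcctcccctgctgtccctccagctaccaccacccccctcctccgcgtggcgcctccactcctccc
Timp1: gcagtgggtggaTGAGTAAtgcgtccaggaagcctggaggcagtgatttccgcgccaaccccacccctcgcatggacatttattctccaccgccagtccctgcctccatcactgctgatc
TGAGTAA was also in the window of Mmp3, 144 bases before the start, and in no other of the 29. Of the genes with a match, Mmp3, Mmp10 and Mmp12 were not called in fibrotic bronchi. Timp2, Mmp14, Adam17, Adamts4 and Adamts8 rose and had no match, for lack of either a window or the motif. Here too a match is no evidence that the factor binds.

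Adam17, the sheddase of tumor necrosis factor and of several ligands of the epidermal growth factor receptor, had signals of 11.31, 11.10 and 11.04 in fibrotic bronchi and of 10.98, 10.71 and 10.52 in nonfibrotic bronchi, against 9.80, 9.93 and 10.71 in controls (lowest, median, highest). Fibrotic arrays lay above all others, while the nonfibrotic arrays overlapped the controls. The log2 fold change was 1.02 (SE 0.24, 2.03-fold, adjusted p = 0.00758), and it lost its call without any 1 of fibrotic replicates 3, 7 and 9 or controls 1, 2, 5 and 6 (adjusted p from 0.0108 to 0.0439). Adam10, its close relative that cuts Notch and cadherins, had signals of 9.88, 10.13 and 9.72 in fibrotic bronchi and of 9.21, 8.63 and 8.83 in nonfibrotic bronchi, against 8.62, 8.77 and 9.81 in controls. Control 1 lay among the fibrotic arrays, and the log2 fold change of 0.93 was not called (SE 0.30, adjusted p = 0.0398) unless that array was left out (1.09, adjusted p = 0.00753). On the second probe set of Adam10 the change was -0.09 (log2, adjusted p = 0.943).

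Adam22, an Adam of the nervous system without a zinc site, had signals of 6.24, 5.02 and 4.47 in fibrotic bronchi and of 5.14, 5.81 and 7.49 in nonfibrotic bronchi, against 6.67, 7.93 and 8.61 in controls (lowest, median, highest). All fibrotic and 2 nonfibrotic arrays lay under the absent level. It was at least 2.4-fold lower in fibrotic bronchi than in controls (adjusted p = 0.00893), a call lost without any 1 of fibrotic replicates 7 and 9 or controls 3 to 6 (adjusted p from 0.0202 to 0.0495). Both further probe sets of Adam22 had lower means in fibrotic bronchi as well, with adjusted p of 0.0119 and 0.0072. Their control means of 6.39 and 5.92 were themselves under the absent level, which only 3 and 1 of the 6 control arrays exceeded. Of the remaining 11 Adam genes none was called in fibrotic bronchi, with log2 fold changes from -1.55 to 2.04, and the 6 genes of the reproductive tract and other sites among them exceeded the absent level on no fibrotic array.

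Adamts4, an aggrecanase that also cuts versican, showed the largest rise of the 49 genes against controls. Its signals were 12.13, 12.11 and 11.81 in fibrotic bronchi and 10.97, 6.67 and 9.06 in nonfibrotic bronchi, against 6.58, 7.26 and 9.45 in controls (lowest, median, highest). Fibrotic arrays lay close together above all others, and the nonfibrotic arrays were spread from the level of the controls to above their highest array, control 1. It averaged 12.02 ± 0.18 in fibrotic (SD, n = 3), 8.90 ± 2.16 in nonfibrotic (SD, n = 3) and 7.59 ± 1.05 in control bronchi (SD, n = 6). The log2 fold change against controls was 4.43 (SE 0.72, 21.5-fold, adjusted p = 4.6e-04), called also without each array in turn. Against nonfibrotic bronchi it was 3.12 (SE 0.83, adjusted p = 0.0272), not called, and without nonfibrotic replicate 4 it was 4.15 and called (adjusted p = 0.00223).

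Adamts8, a proteoglycan-cleaving enzyme abundant in lung, had signals of 11.68, 11.53 and 10.71 in fibrotic bronchi and of 11.29, 11.18 and 11.60 in nonfibrotic bronchi, against 9.25, 9.98 and 10.72 in controls (lowest, median, highest). All exposed arrays except fibrotic replicate 9 lay above the controls. It rose by 1.34 in fibrotic bronchi (SE 0.29, 2.54-fold, adjusted p = 0.00476), and in nonfibrotic bronchi the log2 fold change of 1.39 was not called (SE 0.29, adjusted p = 0.0189). The fibrotic call was lost without fibrotic replicate 3 or 7 or control 4 or 5 (adjusted p from 0.0107 to 0.0391), and the nonfibrotic change was called without control 1 (1.54, adjusted p = 0.00687). Fibrotic minus nonfibrotic was -0.05 with a standard error of 0.34 (adjusted p = 0.954).

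Of the other Adamts genes, Adamts5 and Adamts15 came nearest to the threshold and were named after their values were seen. Adamts5, the main aggrecanase of mouse cartilage, had signals of 9.15, 9.50 and 11.10 in fibrotic bronchi and of 8.88, 6.52 and 8.61 in nonfibrotic bronchi, against 6.21, 7.81 and 8.63 in controls, with a log2 fold change of 2.26 in fibrotic bronchi (SE 0.60, adjusted p = 0.0151). It was called without nonfibrotic replicate 8 (adjusted p = 0.00586). A second probe set of Adamts5 had a log2 fold change of 0.84 that was not called (adjusted p = 0.372), or 0.56 with arrays under the absent level set to it. Adamts15, a proteoglycan-cleaving enzyme that neighbors Adamts8 in the genome, had signals of 9.24, 10.29 and 9.54 in fibrotic bronchi and of 8.48, 8.53 and 8.15 in nonfibrotic bronchi, against 8.27, 8.41 and 9.18 in controls. Its fibrotic arrays lay just above the highest control, and the log2 fold change was 1.17 against controls (SE 0.31, adjusted p = 0.0144) and 1.30 against nonfibrotic bronchi (SE 0.35, adjusted p = 0.0297). By their representing probe sets, all 12 Adamts genes, or 11 of 12 against controls 3 to 6 alone, had a log2 fold change above 0 in fibrotic bronchi, from 0.21 to 4.43, where 7758 of 14217 genes did. On further probe sets the change was 0.84 for Adamts5, 0.75 for Adamts9 and -0.03 for Adamts10 (limma adjusted p = 0.968). The count was also all 12 after quantile normalization and after median centring (which moved the median of all genes to 0.17). With arrays under the absent level set to it, the count was 11 of 12, the remaining gene lying under that level in both groups.

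The nonfibrotic arrays were unlike each other for these genes. Over all genes, too, the median SD was highest in nonfibrotic bronchi (0.63, against 0.48 in fibrotic and in control bronchi). Among the 13 genes called in fibrotic bronchi, nonfibrotic replicate 4 lay past all controls in the fibrotic direction for 11. Nonfibrotic replicate 8 did so for 6 and nonfibrotic replicate 10 for 4. Fibrotic replicates 3, 7 and 9 did so for 13, 13 and 12, which largely follows from choosing the genes by their fibrotic call. The share of all genes is not given for single arrays, so these counts cannot show whether the pattern is particular to the members. The 2 genes for which nonfibrotic replicate 4 did not lie past the controls were Mmp13 and Mmp15. Without that array, 7 members were called between fibrotic and nonfibrotic bronchi in place of 3, with Adamts4, Mmp2, Mmp12 and Mmp14 added to Adam8, Mmp15 and Timp1. Without fibrotic replicate 3 or 9 or nonfibrotic replicate 8 or 10 only Adam8 was called. The share of all genes called without an array is not given, so these counts describe the members alone. The median over the 49 genes of the SD within a group was 0.73 in fibrotic, 0.83 in nonfibrotic and 0.77 in control bronchi, where over all genes it was 0.48 in fibrotic, 0.63 in nonfibrotic and 0.48 in control bronchi.

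The number of members called varied with the controls used. The share of all genes called against each set, with the block or without an array is not given. These counts therefore cannot show whether the variation is particular to the members. Against controls 1 and 2 alone, which are labelled like the exposed arrays, Adam8 was the only member called in fibrotic bronchi (-4.14, adjusted p = 9.6e-05), and against controls 3 to 6 alone 13 were called, 11 of them among the 13 called against all controls. With the set of arrays as a fixed block, 3 were called, Adam8 (-4.14), Timp2 (1.21, adjusted p = 0.00804) and Adam4, which had not been called before. Controls 3 to 6 alone make up 1 of the sets, so this fit gave the same fold changes as controls 1 and 2 alone. For the fold changes it is no separate check. The direction of all 13 called genes was the same against either set. The sizes for Timp1 were 3.90 against controls 1 and 2 and 4.38 against controls 3 to 6, for Adamts4 3.83 and 4.73, for Mmp14 1.73 and 1.75, for Adam19 1.61 and 3.12, and for Mmp15 -1.45 and -2.80. With only 2 controls in the first set, its smaller number of calls does not show that the changes differ. Leaving out fibrotic replicate 3, 7 or 9 left 7, 5 and 6 members called in fibrotic bronchi, all of them among the 13, and leaving out control 5 left 7. Adam8, Adamts4 and Timp2 were called whichever single array was left out.

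**Figure D5:**
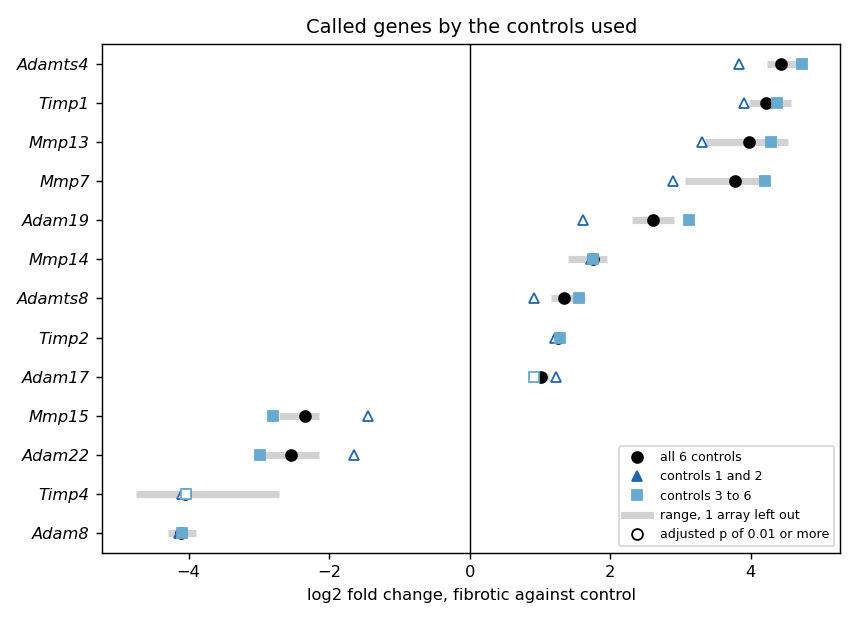
Log2 fold change in fibrotic bronchi (horizontal axis) of the 13 called genes (vertical axis) against all 6 controls, controls 1 and 2, and controls 3 to 6, with grey bars for the range when 1 array is left out and open symbols for an adjusted p of 0.01 or more. All symbols of a gene lie on the same side of 0, and Adam8 keeps a filled symbol against each set.

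Genes that act with the metalloproteinases were counted from lists chosen by function, with earlier results of these data known. Their shares beside those of all genes are therefore a description and not a test. Of 22 activators and inhibitors outside the Timp family, 8 rose (36.4%, where 4.13% of all genes did) and 2 fell (9.09%, where 8.38% of all genes did) in fibrotic bronchi. Plau, the urokinase that makes plasmin and so activates Mmp precursors, was at 12.80 ± 0.04 in fibrotic (SD, n = 3), 9.86 ± 1.38 in nonfibrotic (SD, n = 3) and 8.88 ± 0.66 in control bronchi (SD, n = 6), a log2 fold change of 3.92 (SE 0.47, adjusted p = 3.0e-05). Cd44, a hyaluronan receptor that can hold Mmps at the cell surface, rose by 2.08 (SE 0.34, adjusted p = 5.1e-04), and Plat, the other activator of plasmin, rose by 2.67 (SE 0.44, adjusted p = 5.2e-04). Tfpi2, an inhibitor of serine proteases, exceeded its control level at least 3.26-fold (adjusted p = 8.9e-04). The 2 that fell were Bsg and Pcsk6. None of the 22 was called in nonfibrotic bronchi against control (limma; 2 had an unadjusted p under 0.05), and 4 (18.2%, where 1.47% of all genes were) were called as higher in fibrotic than in nonfibrotic bronchi, Plau, Plat, A2m and Pcolce.

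Of 13 measured matrix proteins that these enzymes cut, 6 rose in fibrotic bronchi (46.2%, where 4.13% of all genes did) and none fell (8.38% of all genes did). Vcan, the versican that Adamts4 cuts, had signals of 11.60, 10.94 and 10.77 in fibrotic bronchi and of 10.08, 9.52 and 9.36 in nonfibrotic bronchi, and averaged 9.01 ± 0.45 in controls (SD, n = 6), a log2 fold change of 2.09 (SE 0.30, adjusted p = 1.6e-04). Fn1, fibronectin, rose by 4.79 (SE 0.62, adjusted p = 6.0e-05), and Thbs2, thrombospondin 2, was at least 13.2-fold higher (adjusted p = 3.0e-05). Col4a1, a chain of basement membrane collagen, rose by 1.87 (SE 0.35, adjusted p = 0.00161). Of 18 proteins that Adams release from cells, 3 rose (16.7%, where 4.13% of all genes did) and 2 fell (11.1%, where 8.38% of all genes did). Areg, amphiregulin, exceeded its control level at least 5.43-fold (adjusted p = 1.2e-04). Hbegf, a growth factor that binds heparin, rose by 2.88 (adjusted p = 0.00518), or by 1.93 with arrays under the absent level set to it. Cdh1, the cadherin of epithelium, fell by 1.25 (adjusted p = 5.2e-05), and Sdc4, a heparan sulfate proteoglycan of the cell surface, fell by 1.38 (adjusted p = 0.00147). Of 4 Adamts-like proteins none was called (limma; 1 had an unadjusted p under 0.05).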

How the data were processed

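Laser-captured bronchi of 12 rat specimens were profiled on 1 Affymetrix array each. The deposited values are MAS5 signal intensities, which the authors had scaled so that the trimmed mean (2% at each end) was 500 on every array; scaling sets each array's overall level equal, and low MAS5 values carry large errors on a log scale. The array design is named differently in the study's sources, and the probe set identifiers are those of a rat 3′ expression array. Groups came from the sample labels. Of 31042 tested probe sets (57 Affymetrix controls left out), 20826 had 1 gene symbol in the platform annotation, 436 had several and were not used for genes, and 9780 had none. Log2 signals, with no pseudocount, were fitted in limma 3.58.1 (R 4.3.3; lmFit, eBayes with an intensity trend) over all 12 arrays, two-sided, with Benjamini-Hochberg adjustment within each contrast and a call at an adjusted p under 0.01. The study's methods used an ANOVA with error weights that are not among the deposited values. Specimens could not be assigned to rats from the labels, and p-values measure the spread between specimens. The script was tested on simulated data.

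Genes named with values were all Timps, all members called in any contrast, members in the study's list of proteases, the gelatinases and collagenases, Adam17, and up to 4 called genes of the smallest p from each other list. The members and lists were chosen with earlier results of these data known. Alternatives covered the thresholds, a filter, a floor, a pseudocount, normalization, the variance model, the samples in the fit, the controls used, the set of arrays as a block, other probe sets, and each array left out in turn. Figures were drawn in Python 3.11.15 with matplotlib 3.10.9. Sequences are from RefSeq (GRCr8).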

Additional observations from a re-analysis of the deposited data

Results flagged for a closer look

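Fibrotic and nonfibrotic bronchi, both from exposed rats, differed for 3 genes by the limma contrast of fibrotic minus nonfibrotic with all arrays. The log2 difference was -1.99 for Adam8, -2.64 for Mmp15 and 4.38 for Timp1. Adam8 was lower than in controls in both tissues, while Mmp15 and Timp1 were called against controls in fibrotic bronchi alone.

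In 3 of the 24 named genes 1 control array stood apart from the other controls by Dixon's criterion, which chance alone meets in about 1 group in 20 and which 14.1% of all genes met. Control 2 had a log2 signal of 10.18 for Mmp2, where the other controls had 11.17 to 11.34. Control 3 had 9.18 for Adamts15, where the others had 8.27 to 8.51. Control 6 had 2.87 for Mmp10, where the others had 3.94 to 4.39, all of these under the absent level.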

How the results depend on the processing

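The 13 calls between fibrotic and control bronchi became 7 without an intensity trend, 1 against controls 1 and 2, and 3 with the set of arrays as a fixed block, and they ranged from 5 (without fibrotic replicate 7) to 14 with 1 array left out. The single call between nonfibrotic and control bronchi became 3 at an adjusted p under 0.05, 2 at a fold over 2 with an unadjusted p under 0.001, 2 against controls 3 to 6, and 0 against controls 1 and 2, with the mean of a gene's probe sets or with its second probe set, and it ranged from 1 to 2 (without control 1) with 1 array left out. The 3 calls between fibrotic and nonfibrotic bronchi became 12 at an adjusted p under 0.05, 5 at the fold and unadjusted p, 1 without an intensity trend and 1 with array quality weights, and they ranged from 1 to 7 (without nonfibrotic replicate 4) with 1 array left out. The share of all genes called under these alternatives is not given, so the counts describe the members alone.

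The second probe sets of Adam8 and Mmp2 lay under the absent level on all arrays. The sign turned with the second probe set for Adam10 (-0.09) and Adam8 (0.04) against controls and for Adam8 (0.39) and Mmp2 (-0.68) against nonfibrotic bronchi. For Mmp8 against controls it turned with low signals raised to each array's 20th percentile (0.25), a pseudocount of 16 (0.09), controls 1 and 2 alone or the fixed block (1.60) and a random block (0.40), and the values ranged from -1.02 to 1.37 with 1 array left out, being above 0 without fibrotic replicate 7 or control 3 (0.20), 4 (0.27) or 6 (0.18). The causes were not tested. No paired analysis was possible because the labels do not tie specimens to rats. Low signals limit the fold changes of genes near the absent level.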
